A study of Mus musculus with 2 samples.

Results

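The genes described here are 10 genes of the FGF10-FGFR2 pathway that directs branching of the embryonic lung, out of 18193 genes named on the array. They are the ligands Fgf10 and Fgf9, the receptor Fgfr2, the ETS transcription factors Etv4 and Etv5, and the feedback inhibitors Spry1, Spry2, Spry4, Dusp6 and Il17rd. They were taken from a list of gene names, and every probe set that the platform annotation assigns to exactly 1 of them was used. There were 21 such probe sets among 34945 that name a single gene.

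Whole lungs from E15.5 mouse embryos, E giving the embryonic day, were studied on an Affymetrix one-colour expression array. One group was wild type and the other TAZ-deficient, the animals being littermates, and TAZ is the transcriptional coactivator encoded by Wwtr1 that partners TEAD DNA-binding proteins. Total RNA of 4 samples was mixed for each group, so each group is 1 pool on 1 array, and the sources used here do not give the animals' strain or sex. How the deficiency was made, and in which cells, is likewise not given there. A single array per group leaves no replicate spread. No test, SD or p-value can be given, and no difference below has a replicate check.

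FGF10 is secreted by mesenchyme around the distal tips of the airway tree and binds the splice form of FGFR2 found on epithelium. The receptor signals through RAS and MAP kinases, and this signal switches on the ETS factors Etv4 and Etv5 together with its own inhibitors. Sprouty proteins and the membrane protein encoded by Il17rd (Sef) dampen the signal on its way from the receptor, and the phosphatase encoded by Dusp6 removes phosphate from ERK. FGF9 comes from mesothelium and epithelium and acts mainly on mesenchyme.

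Signals are in the deposited units, in which each array had a trimmed mean of 100.001. Values under 15.2, the median of all non-control values, were set to that floor before a ratio was taken, and a gene or probe set above it on either array is called measured. Wwtr1 read 791.2 in the wild type pool and 11.3 in the TAZ-deficient pool, at least 52.1-fold lower, and its other probe sets read 222.9 against 6.4 and 176.9 against 3.9. The arrays therefore carry the difference that their labels state, at 3 of 3 probe sets. The lung epithelial markers were present, surfactant protein C (Sftpc) at 4142.5 and 4121.5 and Epcam at 1287.4 and 1335.8. In whole-lung RNA, fewer cells of a type and less RNA per cell cannot be told apart.

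All 10 genes were measured, and none differed by as much as 1.5-fold at its brightest probe set. Here and below the brightest probe set is that with the highest log2 signal averaged over the 2 arrays, and it stands for the gene. At least 1.5-fold higher in the TAZ-deficient pool were 0 of the 10, against 1.28% of the 12032 measured genes. At least 1.5-fold lower were again 0 of 10, against 1.47%. At the smaller step of 1.2-fold, 0 of 10 were higher (8.03% of all genes) and 1 of 10, Il17rd, was lower (10.6% of all genes). These shares are near those of the array as a whole. The median log2 ratio of the 10 genes was 0.02, against -0.01 over all measured genes, and 6 of 10 ratios were above 0, against 46.8% of all genes. The count was 7 of 10 under loess. With the second brightest probe set, or the median over probe sets, it was 5 of 10 and the median turned to -0.0039, so the members had no common direction. Of the 21 probe sets, 16 were measured and 5 were below the floor on both arrays. The plot of signals by probe set gives every value.

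**Figure D1:**
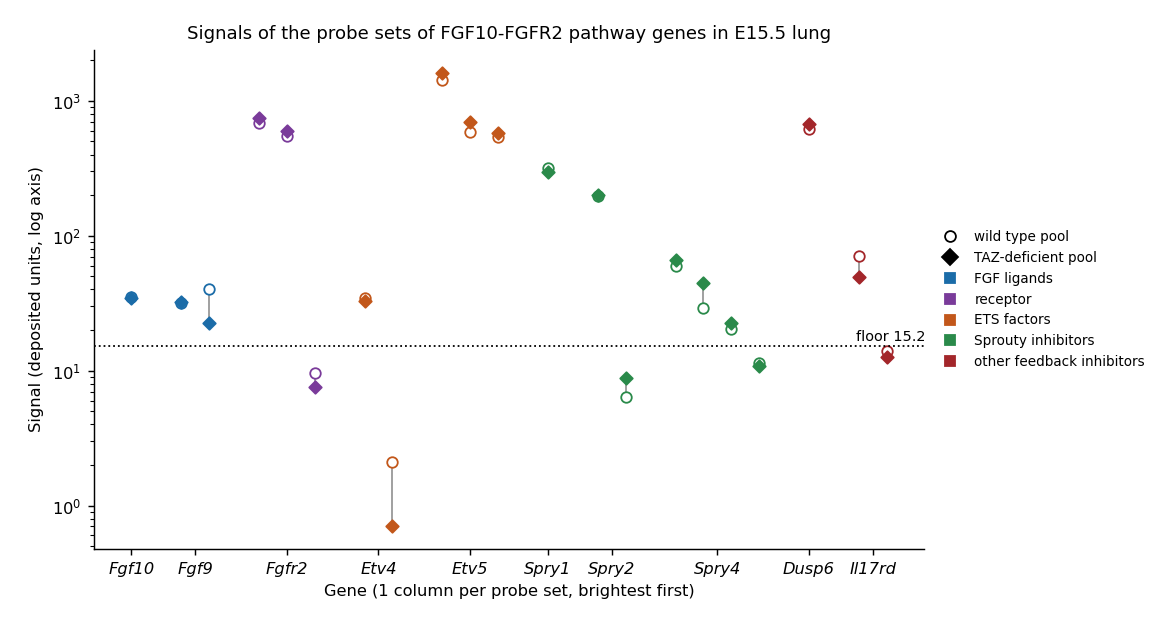
Signal of each of the 21 probe sets (log axis, deposited units) in the wild type pool (open circles) and the TAZ-deficient pool (filled diamonds), 1 array each, coloured by the gene's role, with a dotted line at the floor of 15.2. Most pairs of symbols lie almost on top of each other, and the widest gaps above the floor are at the second probe set of Fgf9 (40.2 and 22.4), the second of Spry4 (29.3 and 44.4) and the brightest of Il17rd (70.5 and 49.4).

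Promoters were examined for the cores bound by the partners of TAZ and by ETS factors such as Etv4 and Etv5. The 250 bases before the annotated starts (RefSeq, GRCm38.p6) were searched on both strands for CATTCC, the core to which TEAD proteins bind, and GGAAG, an ETS core. The hexamer CATTCC reads GGAATG on the other strand, and the patterns share the letters GGAA but neither contains the other. Windows of 8 of the 10 genes were used, 9 windows in all. CATTCC was found in 1 of the 9, that of Spry1, and in 12.6% of all 32851 windows. GGAAG was found in 5 of the 9 and in 64.1% of all windows. Spry1 is shown for its TEAD core, whose first base is at -208 from the start site, and Fgfr2 and Dusp6 as examples of a receptor and an inhibitor with ETS cores. Capitals mark the matches, read 5′ to 3′ along the gene's strand.
Spry1 (chr3:37639697-37639946, plus strand): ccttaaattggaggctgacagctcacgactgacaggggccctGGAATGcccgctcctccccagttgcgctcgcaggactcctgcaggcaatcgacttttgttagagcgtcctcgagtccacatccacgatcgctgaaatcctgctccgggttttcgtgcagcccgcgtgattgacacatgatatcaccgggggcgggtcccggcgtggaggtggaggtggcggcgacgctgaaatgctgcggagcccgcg
Fgfr2 (chr7:130266809-130267058, minus strand): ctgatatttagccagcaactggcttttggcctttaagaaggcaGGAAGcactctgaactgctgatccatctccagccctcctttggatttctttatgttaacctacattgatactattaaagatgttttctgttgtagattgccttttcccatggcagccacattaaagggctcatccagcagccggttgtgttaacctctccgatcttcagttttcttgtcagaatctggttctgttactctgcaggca
Dusp6 (chr10:99262981-99263230, plus strand): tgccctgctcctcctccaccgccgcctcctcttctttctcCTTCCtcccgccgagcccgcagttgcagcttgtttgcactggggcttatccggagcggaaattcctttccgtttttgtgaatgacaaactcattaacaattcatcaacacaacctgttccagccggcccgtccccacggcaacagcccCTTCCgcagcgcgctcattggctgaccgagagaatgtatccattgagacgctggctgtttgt
A match is a description of the letters and no evidence of binding. The gene with the TEAD core, Spry1, was 1.09-fold lower in the TAZ-deficient pool (320.4 and 295.2). The genes with ETS cores stood on both sides of wild type. Fgfr2 and Dusp6, shown here, were 1.09-fold and 1.11-fold higher, and Etv5 was 1.14-fold higher. Il17rd was 1.43-fold lower and Fgf10 1.02-fold lower.

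The ligands read close to the floor. Fgf10, the mesenchymal ligand without which the lung does not form, had a single probe set, which read 35.4 in the wild type pool and 34.6 in the TAZ-deficient pool. This is a log2 ratio of -0.03 (1.02-fold lower), which became 0.0079 under loess normalization. The ratio was higher than that of 51.3% of the 2864 genes with a mean signal under 50, so it lay at the middle of genes of like signal.

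The probe sets of Fgf9 disagreed. The first read 31.6 and 32.1 (log2 ratio 0.02). The second read 40.2 and 22.4 (log2 ratio -0.84), 1.79-fold lower in the TAZ-deficient pool and lower than all but 0.451% of the measured probe sets. The wild type value was thus higher at the second probe set and the TAZ-deficient value lower. The gap of 0.87 between these log2 ratios was reached or passed by 1.42% of the 5637 genes with at least 2 measured probe sets. No direction can be given for Fgf9, since the choice of probe set sets it. The mesothelial markers, which mark one source of FGF9, were 5 of 6 measured, with 3 ratios above 0 and 2 below (4 and 1 under loess). None was at 0, and their median log2 ratio was 0.12 (0.15 under quantile normalization). The 2 brightest stood on opposite sides, Krt19 at 490.8 and 441.9 and Upk3b at 239.9 and 280.3. Krt19 made up the largest part of the summed signal, 1009.8 in the wild type pool and 1026.6 in the TAZ-deficient pool. The part of the mesothelial markers in the Fgf9 values was not tested.

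Fgfr2, the tyrosine kinase receptor for FGF10, read 688.5 and 748.8 at its brightest probe set, 1.09-fold higher in the TAZ-deficient pool (log2 ratio 0.12). The second probe set, at 549.9 and 602.0, was also 1.09-fold higher (log2 ratio 0.13). The third read 9.6 and 7.6, below the floor on both arrays. The measured pair of log2 ratios lay within 0.0095 of each other, a gap reached by 96.4% of genes with at least 2 measured probe sets. Both carry name suffixes of sets that match several transcripts, and the sources used here do not give which splice forms they read. Among the 4647 genes with a mean signal of 200 or more, 84.8% had a lower ratio than Fgfr2.

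Etv5, an ETS factor that responds to FGF signalling in the distal tips, was higher in the TAZ-deficient pool at all 3 of its probe sets. They read 1420.4 and 1620.5, 587.2 and 693.3, and 537.6 and 574.9. The fold differences were 1.14, 1.18 and 1.07, and the log2 ratios 0.19, 0.24 and 0.10. Of the genes with a signal of 200 or more, 93.4% had a lower ratio than its brightest probe set. Etv4, the close relative with overlapping function in the lung bud, did not share this direction. Its measured probe set read 34.7 and 32.7, 1.06-fold lower (log2 ratio -0.09), and its other probe set was below the floor at 2.1 and 0.7.

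The Sprouty genes differed by little and not all in the same direction. Spry1, whose window holds the TEAD core shown above, had a single probe set, which read 320.4 and 295.2, 1.09-fold lower in the TAZ-deficient pool (log2 ratio -0.12). Of the genes with a signal of 200 or more, 14.7% had a lower ratio. Spry2, the Sprouty gene expressed in distal epithelium next to the FGF10 source, read 198.2 and 201.7 (log2 ratio 0.03). Its second probe set was below the floor at 6.4 and 8.8.

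Spry4, which is expressed in distal mesenchyme, was higher in the TAZ-deficient pool at 3 of 3 measured probe sets, but by unequal amounts. The brightest read 59.5 and 65.8 (1.11-fold, log2 ratio 0.15) and the third 20.4 and 22.7 (1.11-fold, log2 ratio 0.15). The second read 29.3 and 44.4, which is 1.52-fold higher (log2 ratio 0.60) and above 98.6% of the measured probe sets. The fourth was below the floor at 11.4 and 10.8. A gap as wide as the 0.45 in log2 ratio between its brightest and second probe sets was found in 10.4% of genes with at least 2 measured probe sets. Taking probe sets singly, this one and the second of Fgf9 were the members' only 2 of 16 at 1.5-fold, 1 higher (1.62% of all measured probe sets) and 1 lower (1.81%). At 1.2-fold, 1 of 16 was higher (9.21%) and 2 were lower (11.7%), and 11 of 16 ratios were above 0 (47.1%).

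Dusp6, the ERK phosphatase and a common readout of FGF activity, read 613.7 and 678.6 at its only probe set, 1.11-fold higher in the TAZ-deficient pool (log2 ratio 0.15). Of the genes with a signal of 200 or more, 89.1% had a lower ratio. Il17rd, which encodes the membrane inhibitor Sef, had the ratio farthest from 0. It read 70.5 and 49.4, 1.43-fold lower (log2 ratio -0.51), and 1.22% of the 4521 genes with a signal from 50 to 200 had a lower ratio. Its second probe set, at 13.9 and 12.6, did not reach the floor on either array, so the difference rests on 1 probe set. Feedback inhibitors of the same pathway thus stood on opposite sides of wild type, as the plot of log2 ratios shows.

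**Figure D2:**
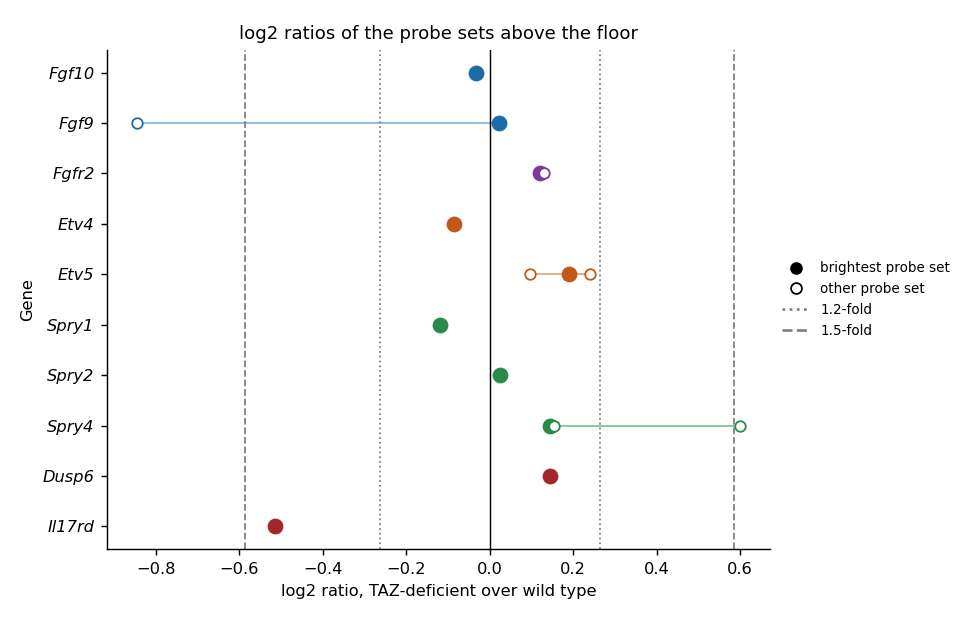
log2 ratio, TAZ-deficient pool over wild type pool (horizontal axis), for the 16 measured probe sets of the 10 genes, 1 array per group, with filled symbols for the brightest probe set of a gene and open symbols for the others. Dotted and dashed lines mark 1.2-fold and 1.5-fold, and the second probe sets of Fgf9 (-0.84) and Spry4 (0.60) lie apart from the brightest of the same genes. The brightest of Fgf10 (-0.03) is at 0.0079 under loess.

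The disagreement between probe sets of 1 gene is the only error these 2 arrays allow. Over the 5637 genes with at least 2 measured probe sets, the spread of a single log2 ratio was 0.20 (the SD of the difference between the 2 brightest, scaled to 1 probe set by dividing by root 2). The spread was 0.13 where both had signals above 106.3 (2418 genes) and 0.24 for the other 3219. The ratios of Etv5 (0.19) and Dusp6 (0.15) exceeded the value for bright genes (0.1285), and those of Fgfr2 (0.12) and Spry1 (-0.12) did not. Under quantile normalization Etv5 was at 0.14 and still exceeded it, and Dusp6 was at 0.1277 and did not. The third probe set of Etv5 (0.10) did not exceed it. In size, the ratio of Il17rd (-0.51) exceeded the 0.24 of the other 3219 genes, in which at least 1 of the 2 probe sets was not above 106.3. Passing 1 such spread is no test, and the spreads hold no variation between embryos, pools or arrays. The 2 brightest probe sets had the same sign in 3 of the 4 members that had them (Fgfr2, Etv5 and Spry4) and in 58.0% of all such genes.

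The plot against all measured genes shows that dimmer genes scatter more. At least 1.2-fold higher or lower were 18.2% and 23.5% of the genes with a signal under 50, where Fgf10, Fgf9 and Etv4 lay. The same shares were 6.95% and 10.4% for signals from 50 to 200, the range of Spry2, Spry4 and Il17rd. They were 2.82% and 2.75% for signals of 200 or more, the range of Fgfr2, Etv5, Spry1 and Dusp6. None of Fgfr2, Etv5, Spry1 and Dusp6 reached 1.2-fold at its brightest probe set.

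**Figure D3:**
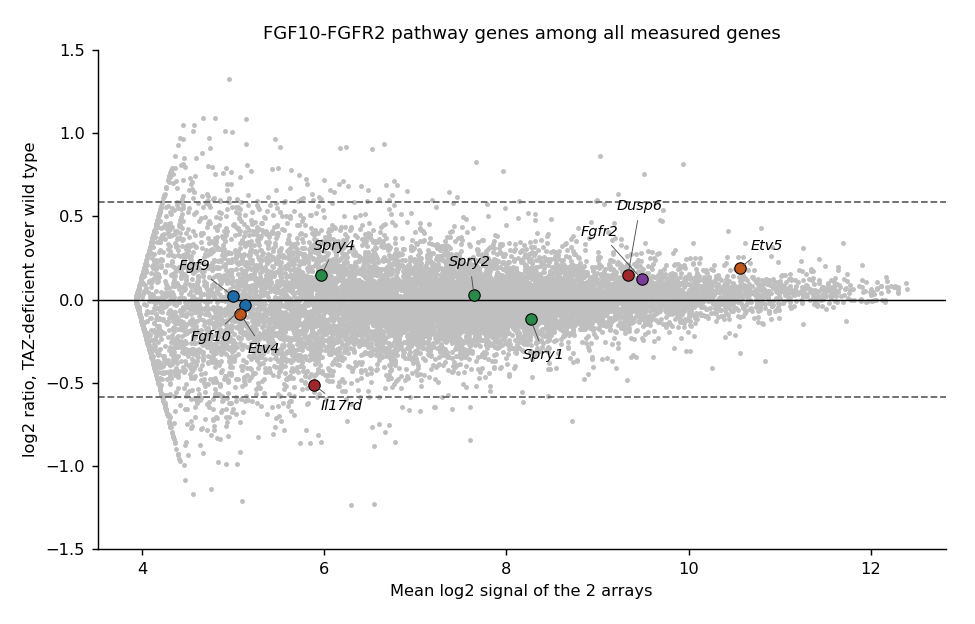
log2 ratio, TAZ-deficient pool over wild type pool, against the mean log2 signal of the 2 arrays for the measured genes (grey) and the 10 FGF10-FGFR2 pathway genes (coloured by role), with dashed lines at 1.5-fold; 8 genes with a log2 ratio over 1.5 in size are not drawn. Il17rd (-0.51) lies near the lower dashed line, Etv5 (0.19) towards the upper side of genes of like signal, and Fgf10 (-0.03, and 0.0079 under loess), Fgf9 and Etv4 in the widest part of the cloud.

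Other genes around the pathway were compared as lists written from textbook knowledge. Of 20 other FGF ligands, 5 were measured, and 0 were at least 1.2-fold different (1, Fgf7, under quantile normalization, median centring and loess). Fgf7, a mesenchymal ligand of the same epithelial receptor form as FGF10, read 55.8 and 66.4 (1.19-fold higher), with a second probe set at 36.8 and 39.3. Fgf18 read 32.9 and 28.6, Fgf13 71.8 and 69.7, and Fgf1 139.1 and 138.6. The median log2 ratio of the 5 was -0.04, with 1 ratio above 0 (2 under quantile normalization, median centring and loess, where that of Fgf1 was above 0). The 15 other ligands were below the floor on both arrays.

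Among the other receptors and co-receptors, 6 of 8 were measured, with 0 at 1.5-fold and a median log2 ratio of -0.06. The secreted FGF-binding protein gene Fgfbp3 was 1.33-fold higher (32.3 and 42.9) and Fgfbp1 1.18-fold higher (84.4 and 99.2). The receptor genes Fgfr3 (271.3 and 263.8) and Fgfrl1 (351.4 and 333.2) had ratios slightly below 0. The median of the list turned to 0.18 with the second brightest probe sets.

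The RAS-MAP kinase genes that carry the signal inward were close to wild type, with 13 of 19 matched to a probe set of their own and measured. None was 1.5-fold different, and the median log2 ratio was -0.04 (0.01 with the second brightest probe sets). The adaptor Frs3 was at least 1.44-fold lower (21.9 and 15.1). The kinase Braf was 1.24-fold higher by its brightest probe set (85.3 and 105.6) but lower at the second (73.1 and 56.8). The phosphatase Ptpn11 read 441.3 and 416.6, and the GTPase gene Nras 412.6 and 398.3.

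Of 16 further MAP kinase feedback genes, 14 were measured. Nf1, which encodes a RAS GTPase-activating protein, was the only one at 1.5-fold (1.75-fold higher, 26.9 and 47.1), and its other probe sets were below the floor at 12.8 and 12.5, and 9 and 12. The median log2 ratio was 0.05, with 8 ratios above 0 and 6 below (9 and 5 under loess). The second brightest probe sets gave a median of -0.04, with 6 above and 8 below.

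Heparan sulfate chains hold FGFs at the receptor, and the list mixes genes of their core proteins, of enzymes that make the chains and of sulfatases that remove sulfate. These genes had more ratios below 0 than above at their brightest probe sets. Of 15 measured, 11 were below 0 (10 under quantile normalization), against 6370 of all 12032 measured genes. At 1.2-fold, 4 were lower and 0 higher (8.03% of all genes were higher), and the median log2 ratio was -0.10. Perlecan (Hspg2) was 1.45-fold lower (121.8 and 84.2), with a second probe set at 30.9 and 29.8. The sulfatase Sulf2 was 1.33-fold lower (313.8 and 235.7) and also lower at the third probe set (159.7 and 120.8), but not at the second (155.7 and 159.2). The core protein genes Gpc3 (889.4 and 1011.1) and Sdc1 (921.5 and 873.6), stood on opposite sides. At least 1.2-fold lower were 4 of 15 at the brightest probe sets, against 10.6% of all genes. At the second brightest it was 1 of 15, against 12.9%, with 8 ratios below 0, 7 above and a median of -0.01.

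Genes of the distal tip, where FGF10 signals, mostly had ratios above 0 at their brightest probe sets, by small amounts that depended on the probe set. Of 11 measured, 10 were above 0 (8 under quantile normalization and under loess), against 46.8% of all genes. At least 1.2-fold higher were 2 of 11, against 8.03%, and 0 reached 1.5-fold. The median log2 ratio was 0.17, against -0.01 over all genes. With the second brightest probe sets it was 0.03, with 8 above 0. At 1.2-fold, 1 was then higher (9.57% of all genes) and 1 lower (12.9%). The inhibitor of differentiation gene Id2, a tip marker, read 1389.5 and 1580.5 (1.14-fold higher), with a second probe set at 703.6 and 710.7. Lama1, which encodes a laminin chain, was at least 1.38-fold higher (14.7 and 21). The cell cycle gene Ccnd1 read 744.3 and 902.2 at its brightest probe set, 1.21-fold higher, but was lower at the others (714.4 and 691.5, 269.1 and 235.5). Shh, the tip-derived hedgehog ligand, read 1197.2 and 1217.9 at its brightest probe set, a ratio above 0 that turned negative with quantile normalization and with loess. Its second probe set was 1.43-fold lower (81.2 and 56.7). Of the epithelial markers, 6 of 6 were measured, with 4 ratios above 0 (5 under quantile normalization and loess, 6 under median centring) and none at 0. Their median log2 ratio was 0.08 (0.04 under quantile normalization, 0.13 with the second brightest probe sets). At least 1.2-fold higher was 1 of 6, against 8.03% of all genes. Their summed signals were 7545.8 and 7868.2, of which Sftpc made up the largest part (4142.5 and 4121.5). The part of the epithelial markers in the values of Fgfr2, Etv5 and the tip genes was not tested.

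Mesenchymal genes that regulate Fgf10 had a median log2 ratio of 0.04 (-0.0095 with the second brightest probe sets), with 11 of 12 measured. At the brightest probe sets 7 ratios were above 0 and 4 below, and at the second brightest 5 were above and 6 below. The hedgehog-responsive factor Gli1 was the only gene of the list at 1.5-fold at its brightest probe set (1.62-fold lower, 64.7 and 40.0). At least 1.5-fold lower were 1.47% of all measured genes. Tbx5 was lower at both of its probe sets, 1.25-fold (116.8 and 93.1) and 1.67-fold (97 and 58). Foxf1 was also lower at both (1003.6 and 948.3, 248.7 and 203.7). Lef1 was higher at both, 1.29-fold (89.8 and 115.9) and 1.18-fold (43.8 and 51.5). Gli3 was higher at all of its probe sets (299 and 342.9, 168.9 and 179.5, 41.8 and 48.2). At the brightest probe sets, 1 of the 11 was at least 1.2-fold higher (8.03% of all genes) and 2 were lower (10.6%). The mesenchymal markers, which include the cells that make Fgf10, were 7 of 7 measured, with summed signals of 8884.6 and 8951.8 and none at 0. The collagen gene Col3a1 read 3422.8 and 3524.0, and was under the wild type value after quantile normalization and loess. Tcf21 read 1707.9 and 1702.6. The median log2 ratio of the mesenchymal markers was -0.0045, with 3 ratios above 0 and 4 below. It was 0.0086 under median centring and -0.05 under quantile normalization. With the second brightest probe sets, or the median over probe sets, it was -0.10. Under quantile normalization and both of these probe set rules, 5 of 7 ratios were below 0. The part of the mesenchymal markers in the Fgf10 value was not tested.

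**Figure D4:**
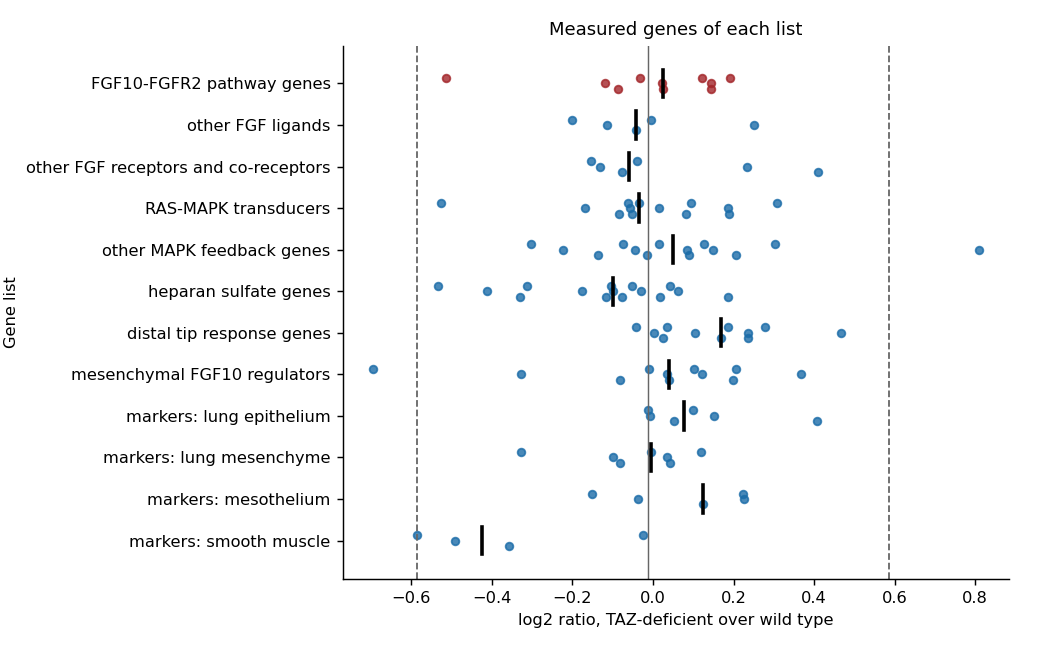
log2 ratio, TAZ-deficient pool over wild type pool, for each measured gene (points, staggered vertically for clarity) of the FGF10-FGFR2 pathway genes, of related gene lists and of marker lists, with a black bar at each list's median, a grey line at the median of all measured genes (-0.01) and dashed lines at 1.5-fold. The distal tip genes have a median of 0.17 (0.13 under quantile normalization) and the heparan sulfate genes one of -0.10, while the pathway genes have one of 0.02 (-0.0039 with the second brightest probe sets), with Il17rd farthest to the left. With the second brightest probe sets the medians of the tip and heparan sulfate genes are 0.03 and -0.01.

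Markers of other cell types were read from the same arrays. Smooth muscle markers were 4 of 4 measured and all below 0, against 6370 of all 12032 measured genes, with a median log2 ratio of -0.42. Of the 4, 3 were at least 1.2-fold lower (10.6% of all genes) and 1 at least 1.5-fold lower (1.47%). Their summed signals were 3504.9 and 3272.3, with Acta2 itself at 2749.2 and 2701.5 and Tagln at 557.0 and 434.8. Heart markers were 3 of 5 measured and all 3 below 0 (Actc1 551.9 and 435.1, Myl7 83.6 and 46.2), against the same 6370 of 12032. Their median log2 ratio was -0.61, with summed signals of 680.6 and 517.5. All 3 were at least 1.2-fold lower (10.6% of all genes) and 2 at least 1.5-fold lower (1.47%). Endothelial markers (Pecam1 499.1 and 455.1, Cdh5 352.3 and 342.3) had a median of -0.02 and leukocyte markers (Csf1r 280.0 and 279.0, C1qa 156.4 and 121.4) one of -0.16. Of the liver, thymus, and thyroid and oesophagus markers, 1, 1 and 0 of 4 each were measured (Alb 15.3 and 10.7, Cd8a 19.6 and 21.3). The bearing of the muscle marker values on Spry4 and Il17rd was not tested.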

How the data were processed

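Each group was 1 pool of 4 total RNA samples on 1 Affymetrix Mouse Genome 430 2.0 array. The deposited intensity values are linear, and GCOS and MAS5 are named, with no version, per the submitters' processing notes. The trimmed mean (lowest and highest 2% removed) was 100.001 on each array. No background step, detection call or genome build is given in the sources used here.

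Of 45101 probe sets, 64 controls were removed. The platform annotation named 1 gene for 34945, several for 932 and did not list 9160, and those with several or no genes were left out. Symbols were updated through Entrez identifiers to RefSeq GRCm38.p6 for 34741. Values below the floor of 15.2 were set to it, and log2 ratios were taken, TAZ-deficient over wild type. Of several probe sets of a gene, that with the highest mean log2 signal was used. Fixed folds (1.2 and 1.5) replaced tests, and 1 array per group limits the precision of every value. The alternatives were the floor at the 25th (4.3) or 75th (106.3) percentile, quantile normalization, median centring, loess (span 0.3), 2 other rules for probe sets of a gene, and no shared probe sets. Calculations used Python 3.11.15, pandas 2.3.3 and statsmodels 0.14.6, and the script was tested on simulated data.

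The text names Wwtr1, all 10 pathway genes, up to 4 genes per related list at 1.5-fold (otherwise the 2 with the largest ratios and the 2 brightest) and the 2 brightest genes per marker list. Of the Fgf10 regulators, Tbx5, Foxf1, Lef1 and Gli3 are named in addition because each kept its direction at every one of several measured probe sets. The members and lists were chosen with earlier results of these data known.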

Additional observations from a re-analysis of the deposited data

How the results depend on the processing

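Of the 10 genes, 8 kept the sign of their ratio under every one of the 8 alternatives in which they were measured. The exceptions were Fgf10 (0.0079 under loess) and Fgf9, at -0.84 with the second brightest probe set and -0.41 with the median over probe sets. Il17rd ran from -0.51 to -0.48 where it was measured. With the floor at the 75th percentile only 5 of the 10 were measured and the median log2 ratio was 0.12. There 0 were at least 1.2-fold lower, against 4.19% of all measured genes. With the median over probe sets, 2 (Il17rd and Fgf9) were at least 1.2-fold lower, against 9.93%. With the second brightest probe set, 1 gene (Spry4) was at least 1.5-fold higher (1.63% of all genes) and 1 (Fgf9) at least 1.5-fold lower (1.99%). At 1.2-fold under that rule 1 was higher (9.57%) and 2 were lower (12.9%). Counting the 16 measured probe sets singly was an alternative chosen after seeing the data, with a median of 0.11. At 1.5-fold it gave 1 higher and 1 lower (1.62% and 1.81% of all measured probe sets). At 1.2-fold it gave 1 higher and 2 lower (9.21% and 11.7%). With the second brightest probe set, or the median over probe sets, 5 of the 10 ratios were above 0 and the median was -0.0039. The shift of Fgf10 comes with the normalization, and its cause was not tested. The other shifts follow from the choice of probe set or, at the higher floor, from the fewer genes measured. The bound for Wwtr1 depends on the floor, its log2 ratio being -6.13 and -2.90 with the floor at the 25th and 75th percentile. No paired analysis was possible because each group has 1 array. Replicates could not be left out for the same reason. Signals near the floor limit what can be said of Fgf10, Fgf9 and Etv4.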
